A study of Mus musculus with 36 samples.

Results

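The 40 genes of the cell cycle and DNA replication described here were followed in macrophages grown from mouse bone marrow, as part of a study of how cyclodextrin, a cyclic sugar that takes up cholesterol, acts on cells loaded with cholesterol crystals. The genes were chosen by name, from textbook members of the replication and mitotic machinery, with earlier results of these data known. A gene counted as measured if at least 1 probe had a detection p under 0.05 on 4 or more of the 36 bead arrays. Of 40 listed genes, 33 were measured, among 14416 genes in all. Bub1, Ccna2, Ccnb2, Chek1, Cks2, Kif20a and Ube2c had no probe that passed and are not described further.

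The macrophages were differentiated with M-CSF from C57BL/6 mice aged 2 to 5 months that were LXRa/LXRb dko, lacking both liver X receptors, or wt. In each genotype, cells were left untreated, loaded with cholesterol crystals for 3 h, given 10 mM cyclodextrin (CD) for 4 h, or loaded with crystals and, after the excess had been washed off, given CD. Each of the 4 dko groups held 4 arrays, which the labels number 6 to 9, and each of the 4 wt groups held 5 arrays, numbered 1 to 5. The labels give neither the way the receptors were deleted nor the source that arrays of 1 number share, so p-values measure the spread between arrays, which may in part be technical.

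Before a cell divides, it loads the ring-shaped MCM helicase onto replication origins with the help of CDC6 and CDT1, and makes the DNA building blocks through enzymes such as ribonucleotide reductase. E2F transcription factors switch on this set of genes at the entry to S phase, and a later set, read from promoters that often carry CHR and CCAAT elements, supplies the kinases, the anaphase-promoting complex (APC/C) and the spindle proteins of mitosis. M-CSF keeps macrophages from bone marrow dividing in culture, and their RNA therefore holds transcripts of both sets. In whole cultures, fewer dividing cells and less RNA per dividing cell cannot be told apart.

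Several arrays stood apart in ways that touch every result below. The wt arrays numbered 1 to 3 lay on 2 slides that held no dko array, while wt numbers 4 and 5 and all dko arrays shared the other 4 slides. Xist, the RNA made from the inactive X chromosome of female cells, had a log2 level of 10.88 to 11.40 on all 12 arrays of wt numbers 1 to 3 and of 10.34 to 10.64 on 8 dko arrays, and of 4.19 to 4.41 on the other 16 arrays. Each dko number had both high and low arrays, so a dko number did not mark arrays that were alike in Xist. The probes for the targeted genes Nr1h3 and Nr1h2 gave no check of the genotype labels, since the Nr1h3 level was 9.59 to 10.91 in dko arrays and 9.20 to 11.29 in wt arrays. All 10 macrophage markers were measured, at a mean log2 level of 11.27 to 11.87 in dko and 11.33 to 11.95 in wt arrays. Arrays of 1 group correlated at 0.964 to 0.995 over genes.

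Promoters of 4 members are shown because these genes carry the results: Rrm2, Uhrf1 and Mcm5 had the smallest p of the members between genotypes under CD, and Cenpa was called in 4 treatment comparisons. The sequences are from RefSeq (GRCm38.p6), 5′ to 3′ along the gene's strand, from 250 bases before the transcription start to 50 bases after it. Capitals mark matches on either strand to an E2F element (TTTGGCGC, TTTCCCGC, TTTCGCGC or TTTGCCGC), a CHR element (TTTGAA or TTCGAA) or CCAAT, which reads ATTGG on the other strand.
Rrm2 (chr12:24708004-24708303, + strand): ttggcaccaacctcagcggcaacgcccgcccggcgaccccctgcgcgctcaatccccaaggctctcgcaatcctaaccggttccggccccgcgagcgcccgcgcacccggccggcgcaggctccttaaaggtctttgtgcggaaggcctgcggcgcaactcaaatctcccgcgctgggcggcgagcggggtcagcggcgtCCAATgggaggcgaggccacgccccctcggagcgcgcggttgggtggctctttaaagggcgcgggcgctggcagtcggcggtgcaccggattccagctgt
Uhrf1 (chr17:56304063-56304362, + strand, the second of 2 promoters listed): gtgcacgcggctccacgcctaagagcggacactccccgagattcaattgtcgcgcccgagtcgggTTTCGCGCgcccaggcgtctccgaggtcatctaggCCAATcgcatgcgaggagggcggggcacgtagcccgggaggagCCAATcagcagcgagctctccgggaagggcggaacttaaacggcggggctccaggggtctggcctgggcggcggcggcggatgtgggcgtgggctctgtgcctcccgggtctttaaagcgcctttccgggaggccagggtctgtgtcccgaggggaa
Mcm5 (chr8:75109259-75109558, + strand): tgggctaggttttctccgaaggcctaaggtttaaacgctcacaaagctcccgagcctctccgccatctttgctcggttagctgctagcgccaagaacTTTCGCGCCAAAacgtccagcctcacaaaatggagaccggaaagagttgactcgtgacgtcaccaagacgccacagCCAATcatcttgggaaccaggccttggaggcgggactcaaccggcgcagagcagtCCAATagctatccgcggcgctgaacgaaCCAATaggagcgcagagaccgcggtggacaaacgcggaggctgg
Cenpa (chr5:30666636-30666935, + strand): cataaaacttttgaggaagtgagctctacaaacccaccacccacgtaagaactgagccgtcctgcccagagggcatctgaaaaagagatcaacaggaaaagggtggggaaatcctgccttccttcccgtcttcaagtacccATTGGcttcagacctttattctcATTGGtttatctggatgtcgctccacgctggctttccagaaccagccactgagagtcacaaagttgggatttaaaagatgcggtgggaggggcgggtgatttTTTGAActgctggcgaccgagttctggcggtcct
In Mcm5 the capitals after position -153 hold 2 overlapping E2F matches, one on each strand, and CCAAT matches begin at -77, -22 and 7. Cenpa, whose protein marks the centromere, had a CHR match that begins at 17, and CCAAT matches on the other strand at -109 and -86, with no E2F match in this window. Rrm2 had a single CCAAT match at -50. The Uhrf1 promoter shown had an E2F match at -185 and CCAAT matches at -150 and -107, while its first listed promoter, which is not shown, had 3 CCAAT matches and no E2F match. Of the 40 listed genes 34 had a promoter in the RefSeq table, and an E2F match was found in 7 of them (20.6%), against 2.61% of 27025 genes. A CHR match was found in 16 (47.1%), against 21.7%, and a CCAAT match in 25 (73.5%), against 41.1%. A match is only a run of letters and does not show that a factor binds there.

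The first question was how the members differed between dko and wt macrophages. Averaged over the 4 treatments, 26 of the 33 measured members fell in dko cells and none rose, by limma's moderated test at an adjusted p under 0.05, beside 9.1% of all genes called lower, 10.1% called higher and 19.2% called in either direction. That test took all arrays as independent. Deviations of same-numbered arrays, however, correlated at a median of 0.53 in wt, against -0.40 in dko. The p-values of averaged genotype differences, here and below, may therefore be too small. With the replicate number as a block fewer members passed, and that count is given in the last paragraph. The members' median log2 difference, dko minus wt, was -0.34, against -0.01 over all genes, and 32 of 33 lay below 0. The exception was E2f1, the S-phase transcription factor, at 0.13 ± 0.07 (SE, adjusted p = 0.251).

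**Figure D1:**
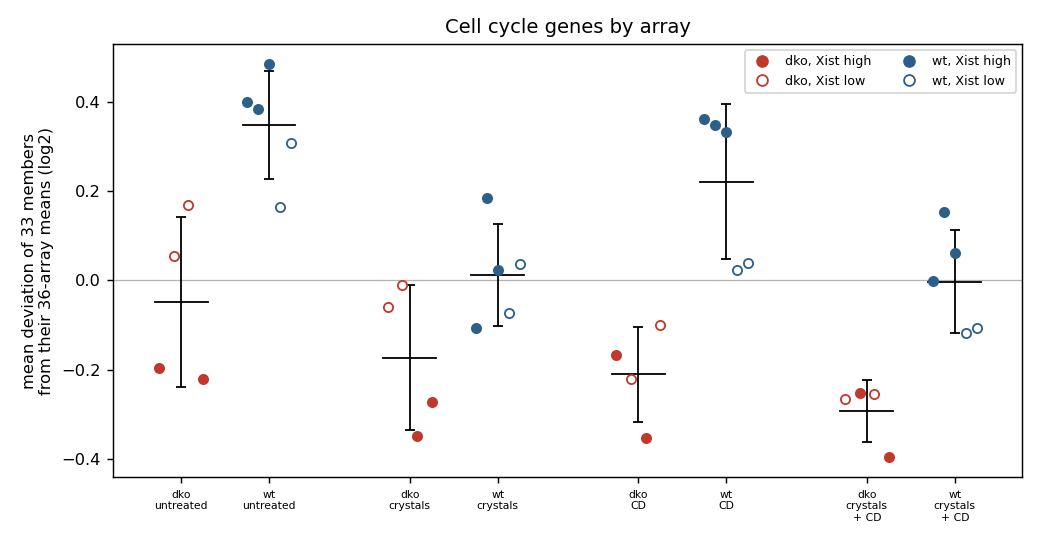
Mean deviation of the 33 measured members from their own means over the 36 arrays (log2, y axis) for each array, with dko groups (red) left of wt groups (blue) in each treatment. Bars are group mean ± SD, filled points are arrays with a high Xist level and open points arrays with a low one. Untreated dko arrays lie between -0.22 and 0.17 and untreated wt arrays between 0.17 and 0.49, so that only the highest dko array reaches the lowest wt array.

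The set as a whole showed the genotype and crystal differences as a level per array. This level was the mean, over members, of the log2 deviation from the member's mean over all arrays. It averaged -0.05 ± 0.19 in untreated dko and 0.35 ± 0.12 in untreated wt cells, -0.17 ± 0.16 in dko and 0.01 ± 0.11 in wt cells with crystals, -0.21 ± 0.11 in dko and 0.22 ± 0.17 in wt cells with CD, and -0.29 ± 0.07 in dko and -0.00 ± 0.11 in wt cells with both (SD, n = 4 dko and 5 wt). The dko mean lay below the wt mean in all 4 treatments, and the untreated wt group had the highest mean of the 8.

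Rrm2 encodes the small subunit of ribonucleotide reductase, which limits the supply of deoxynucleotides in S phase, and it differed most between genotypes. Its log2 level was 6.30, 7.08, 7.27 and 6.45 in untreated dko arrays, against 7.94, 7.47, 7.58, 7.87 and 8.21 in untreated wt arrays. With CD it was 6.50, 6.48, 6.19 and 7.03 in dko arrays, against 7.65, 7.86, 7.20, 7.62 and 7.39 in wt arrays. The genotypes did not overlap in either state, nor after crystals (at most 6.83 in dko, at least 6.87 in wt) or crystals plus CD (at most 6.75 in dko, at least 6.86 in wt). Rrm2 fell by 1.04 ± 0.21 in untreated dko cells (log2 ± SE, adjusted p = 0.0186) and by 0.99 ± 0.21 under CD (adjusted p = 0.0175). Under crystals the Rrm2 difference was -0.66 (adjusted p = 0.136) and under crystals plus CD -0.78 (adjusted p = 0.0935), neither of which passed in limma. Averaged over treatments Rrm2 fell by 0.87 ± 0.10 (adjusted p = 1.04e-06), and the difference of its second probe was -0.67 ± 0.11 (limma over probes, adjusted p = 8.5e-05).

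Uhrf1 encodes the protein that brings DNA methyltransferase 1 to newly copied DNA. Under CD its level was 9.36, 8.93, 8.93 and 9.45 in dko arrays, against 10.30, 10.22, 9.81, 9.74 and 9.59 in wt arrays, with no overlap. Untreated Uhrf1 levels were 9.12, 9.19, 9.56 and 8.89 in dko arrays, against 9.97, 9.65, 9.97, 9.48 and 9.82 in wt arrays, and here 1 dko array lay above the lowest wt array. Uhrf1 fell by 0.76 ± 0.16 under CD (limma adjusted p = 0.015) and by 0.53 ± 0.08 averaged over treatments (adjusted p = 2.83e-05), while the untreated difference of -0.59 had an adjusted p of 0.0946.

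**Figure D2:**
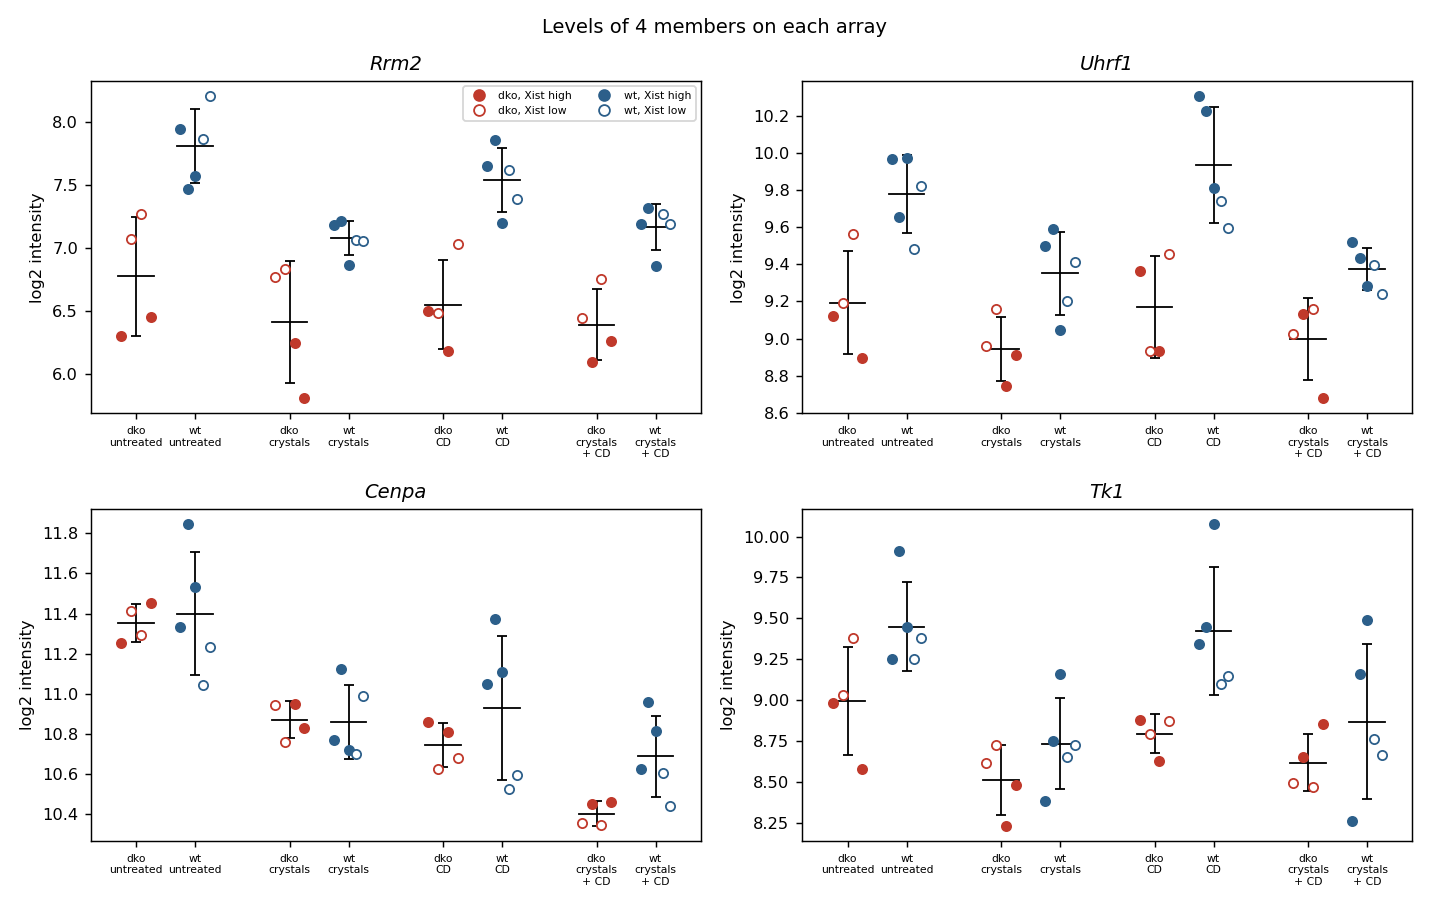
Log2 intensity (y axis) of Rrm2, Uhrf1, Cenpa and Tk1 on each array, with dko groups (red) left of wt groups (blue) in each treatment; bars are mean ± SD, filled points have a high Xist level and open points a low one. The Rrm2 points of dko lie below those of wt in all 4 treatments, while Cenpa, at 11.25 to 11.45 in untreated dko and 11.05 to 11.85 in untreated wt arrays, overlaps between the genotypes when untreated.

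In the genotype comparison within 1 treatment, few members passed. In untreated cells 1 of 33 (Rrm2) fell, beside 0.0971% of all genes called lower, and 19 members had an unadjusted p under 0.05; Nusap1, a spindle microtubule protein, had the next smallest p, at a difference of -0.85 ± 0.22 (adjusted p = 0.0923). Under CD 2 of 33 (Rrm2 and Uhrf1) fell, beside 0.18% of genes, and Mcm5, an MCM helicase subunit, was at -0.66 ± 0.16 (adjusted p = 0.0615). None passed under crystals, beside 0.375% of genes called in either direction, or under crystals plus CD, beside 0.451%. In those 2 states 4 and 10 members had an unadjusted p under 0.05, and the members' median difference was -0.17 and -0.29, against -0.38 in untreated cells and -0.45 under CD.

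By role, the averaged genotype difference passed in 9 of 10 licensing and fork genes and 4 of 4 genes of nucleotide supply. It passed in 5 of 5 mitotic cyclins and kinases and 6 of 10 chromosome and spindle genes. It also passed in 1 of 3 S-phase entry genes (Uhrf1) and the 1 measured APC/C gene, Cdc20. Beside these counts 9.1% of all genes were called lower. The helicase subunits Mcm2 to Mcm7 all fell, from -0.57 ± 0.14 for Mcm6 (adjusted p = 0.00542) to -0.33 for Mcm3 (adjusted p = 0.0175). Mcm4, the member with the third smallest p, fell by 0.41 ± 0.07 (adjusted p = 0.000196) and averaged 10.43 ± 0.16 in untreated dko and 10.95 ± 0.32 in untreated wt cells (SD, n = 4 and 5). Among mitotic genes, Nusap1 fell by 0.57 ± 0.11, the checkpoint kinase Bub1b by 0.41 and cyclin B1, Ccnb1, by 0.40 ± 0.13. Kif11, Top2a, Mki67, Cenpa, Ccne1, Pcna and E2f1 did not pass. These include the proliferation marker Mki67, whose averaged difference of -0.30 had an adjusted p of 0.194, with untreated levels of 8.78 ± 0.65 in dko and 9.15 ± 0.18 in wt cells (SD). Within dko the Mki67 level split by Xist without overlap, at most 8.43 on arrays with high Xist and at least 9.22 on those with low Xist. Ccnb1 split the same way, at most 7.28 on high and at least 7.91 on low. Cdt1 split the other way, at least 10.26 on high and at most 10.19 on low. The dko means of these genes average over both kinds of array, and the reason for the split was not tested. Over the arrays with low Xist the Mki67 difference was 0.19 (adjusted p = 0.169). Over those arrays Nusap1 was at -0.10, Bub1b at -0.16 and Ccnb1 at 0.06, and none of the 3 passed.

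**Figure D3:**
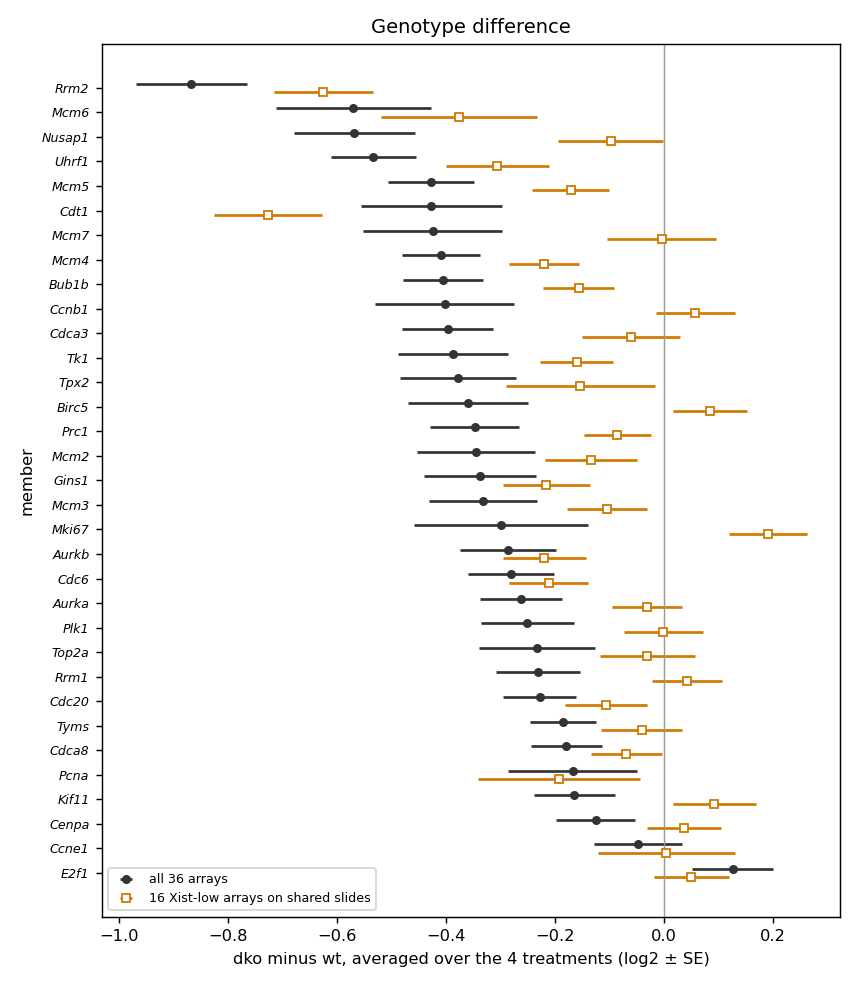
Difference dko minus wt averaged over the 4 treatments (log2 ± SE, x axis) for each measured member (y axis), over all 36 arrays (dark circles) and over the 16 Xist-low arrays, which all lie on shared slides (open squares). The median is -0.34 over all arrays and -0.10 over the Xist-low ones, where Cdt1 and Rrm2 lie furthest below 0.

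The size of the genotype difference depended on which arrays entered. Over the shared slides alone (dko numbers 6 to 9, wt numbers 4 and 5) 30 of 33 members lay below 0, with a median of -0.22, and 3 passed: Rrm2 (-0.93 ± 0.15, adjusted p = 0.000465), Aurkb (-0.42) and Uhrf1 (-0.41), beside 3.86% of all genes. With slide as a random block 17 passed, beside 12.2% of genes, and with slide as a fixed block 4. Over the 8 dko and 8 wt arrays with low Xist, 25 members lay below 0 with a median of -0.10. Cdt1 (-0.73 ± 0.10, adjusted p = 0.00038) and Rrm2 (-0.63 ± 0.09, adjusted p = 0.000674) passed there, beside 5.81% of genes. This low-Xist count lay near the share of all genes and is not read as a result about the members. Cdt1 was also lower on every dko array with low Xist than on any with high Xist, as given above. The size of its low-Xist difference is therefore read for those arrays alone. Without wt number 2 there were 12 members called, and without dko number 9 there were 16. These leave-out counts, and that with slide as a fixed block, are given without the share of all genes. The set level was -0.40 to -0.17 (median -0.26) on dko arrays with high Xist and -0.27 to 0.17 (median -0.08) on dko arrays with low Xist, against -0.11 to 0.49 (median 0.26) on wt arrays with high Xist and -0.12 to 0.31 (median 0.03) on wt arrays with low Xist. All wt arrays with high Xist lay on the slides without dko arrays, so Xist level, slide and replicate number cannot be told apart within wt.

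Levels were also summed up by replicate number, as the mean of a number's 4 arrays after the mean of each treatment was taken off. The 3 members with the smallest p are given as a description. The p-values of an exact permutation test run on them are left out, since these members were chosen for this same difference. Rrm2 was at -0.63 to -0.39 over the dko numbers and 0.11 to 0.48 over the wt numbers. Uhrf1 was at -0.39 to -0.25 over the dko numbers and 0.08 to 0.45 over the wt numbers, and Mcm4 at -0.30 to -0.16 over the dko numbers and -0.03 to 0.43 over the wt numbers. Since each dko number, as labelled, held arrays with high and arrays with low Xist, a dko number did not stand for 1 animal. The dko numbers may thus not be separate sources.

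Markers of other cells moved with genotype too. Averaged over treatments, all 6 measured of 10 granulocyte markers rose in dko cells (median 1.02, with S100a9 by 1.82 and S100a8 by 1.29). So did 6 of 7 measured stromal markers (median 1.15, with Sparc by 1.76 and Col1a1 by 1.73), beside 10.1% of all genes called higher. Of the macrophage markers 1 of 10 fell (Adgre1, by 0.28), beside 9.1% of all genes called lower. The mean log2 level of the granulocyte list was 4.76 to 6.51 in untreated dko and 4.58 to 4.83 in untreated wt arrays, and that of the stromal list 7.32 to 8.07 in untreated dko and 6.08 to 7.32 in untreated wt arrays. Stromal levels also moved with Xist, at 7.71 to 8.07 on dko arrays with high Xist and 7.08 to 7.55 on those with low Xist, against 5.83 to 6.59 on wt arrays with high and 6.71 to 7.38 on those with low Xist. No T and B cell marker, dendritic marker or erythroid and mast marker was called, with 2 of 8, 2 of 6 and 3 of 8 measured. The part of these other cells in the members' difference was not tested.

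The second question was what crystals did without CD. In dko cells no member passed by limma, beside 0.416% of all genes called, and 2 members had an unadjusted p under 0.05; the members' median change was -0.16, crystals minus untreated. In wt cells 16 of 33 members fell and none rose, beside 7.11% of all genes called lower, 6.89% called higher and 14% called in either direction. The median change in wt was -0.43, against -0.01 over all genes.

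**Figure D4:**
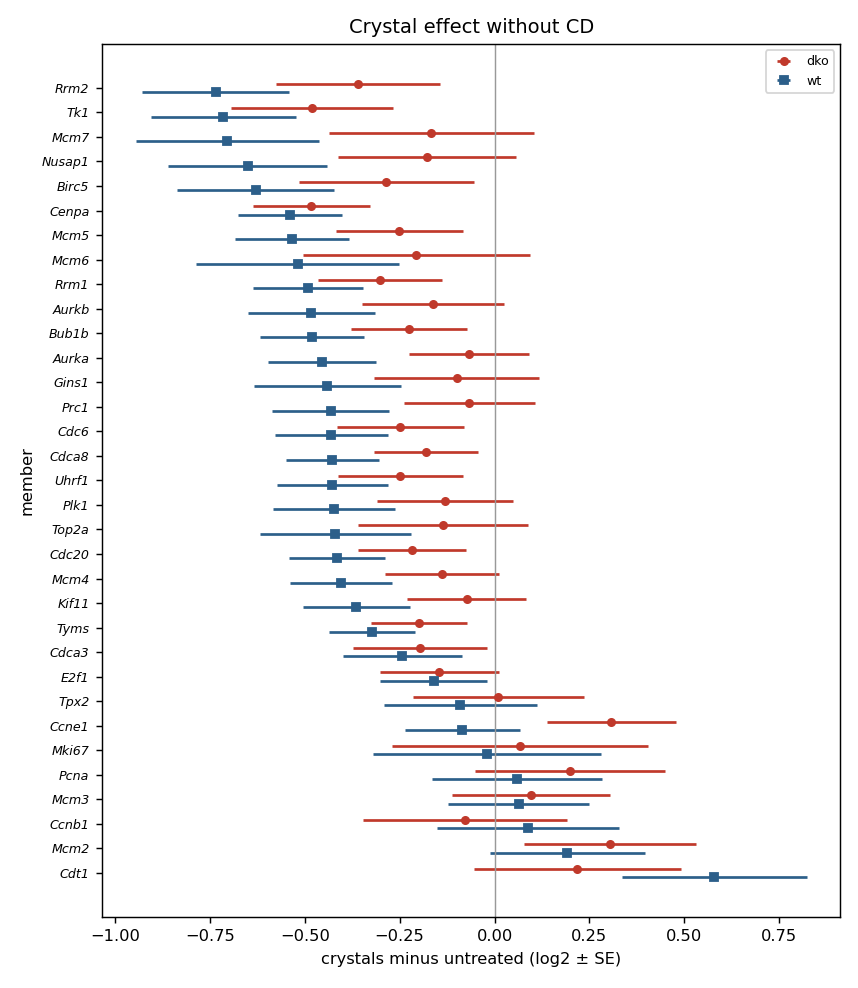
Change with crystals in the absence of CD (crystals minus untreated, log2 ± SE, x axis) for each measured member (y axis) in dko (red circles) and wt (blue squares). In dko 26 of 33 members lie below 0 and in wt 28; Cdt1 lies above 0 in both, at 0.22 and 0.58.

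Cenpa, the centromeric histone, had the smallest p in wt. Its level was 10.94, 10.76, 10.95 and 10.83 in dko arrays with crystals, against 11.25, 11.41, 11.30 and 11.45 in untreated dko arrays. In wt arrays Cenpa was at 10.77, 11.12, 10.72, 10.70 and 10.99 with crystals, against 11.33, 11.85, 11.53, 11.05 and 11.23 untreated. In dko the states did not overlap, and in wt 1 crystal array lay above the lowest untreated array. The Cenpa change in dko, -0.48 ± 0.15, had an adjusted p of 0.2, while in wt Cenpa fell by 0.54 ± 0.14 (adjusted p = 0.00622).

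Nucleotide supply changed in wt in 3 of 4 genes, Rrm2 (-0.73 ± 0.19, adjusted p = 0.00814), Tk1 (-0.71 ± 0.19, adjusted p = 0.00923) and Rrm1 (-0.49), with Tyms, thymidylate synthase, at -0.32 (adjusted p = 0.0531). Tk1 encodes thymidine kinase, which salvages thymidine in S phase. It was at 8.38, 8.75, 9.16, 8.65 and 8.72 in wt arrays with crystals, against 9.25, 9.91, 9.45, 9.25 and 9.38 in untreated wt arrays, without overlap. The Rrm2 level after crystals was 7.18, 7.22, 6.87, 7.06 and 7.06 in wt arrays, all below the lowest untreated wt array, at 7.47.

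Of the licensing and fork genes 4 of 10 fell in wt (Mcm4, Mcm5, Mcm7 and Cdc6, by 0.40 to 0.70), beside 7.11% of all genes. So did 3 of 5 mitotic cyclins and kinases (Aurka, Aurkb and Bub1b) and 4 of 10 chromosome and spindle genes (Cenpa, Birc5, Cdca8 and Nusap1). Of S-phase entry genes 1 of 3 fell (Uhrf1), as did Cdc20 of the APC/C. Cdt1, which licenses origins and is destroyed in S phase, was at 0.58 ± 0.24 (adjusted p = 0.121), with levels of 10.94, 11.01, 10.89, 10.41 and 10.75 in wt arrays with crystals, against 10.14, 9.77, 9.96, 10.27 and 10.97 in untreated wt arrays. Ccnb1 (0.09), Mki67 (-0.02), Mcm3 (0.06) and Pcna (0.06) had adjusted p-values of 0.905 to 0.986.

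The count in wt rested on few arrays. On the slides with wt alone (numbers 1 to 3) 13 members passed, with 12 falling and Cdt1 rising by 0.99 ± 0.14 (adjusted p = 0.000496), beside 16.8% of genes. On the shared slides (numbers 4 and 5) none passed, beside 0.534% of genes, with 29 of 33 members below 0 and a median of -0.22. Without wt number 1, or without number 3, there were 3 members called, without number 2 there were 9 and without number 4 there were 10. These leave-out counts are given without the share of all genes. With median scaling in place of quantile normalization, or with the deposited matrix, none passed, while the members' median relative to that of all genes was -0.34 and -0.29, against -0.42, with 27 of 33 below it in each. Among the markers, Cd14 (-1.14) and Itgam (-0.87) fell with crystals in wt, 2 of 10 of the macrophage list, beside 7.11% of all genes. No marker of another cell type was called.

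Whether the crystal effect differed between genotypes was tested as an interaction. No member passed, beside 0.0416% of all genes (6 of 14416). The difference, dko effect minus wt effect, was above 0 in 31 of 33 members with a median of 0.25, and it was 0.06 ± 0.21 for Cenpa, 0.38 ± 0.29 for Rrm2 and 0.54 ± 0.36 for Mcm7, each with an adjusted p of 1. On the shared slides its median was 0.09, with 24 of 33 members above 0. A difference in the members' response was therefore not shown at this number of arrays, although no member passed in dko and 16 did in wt.

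**Figure D5:**
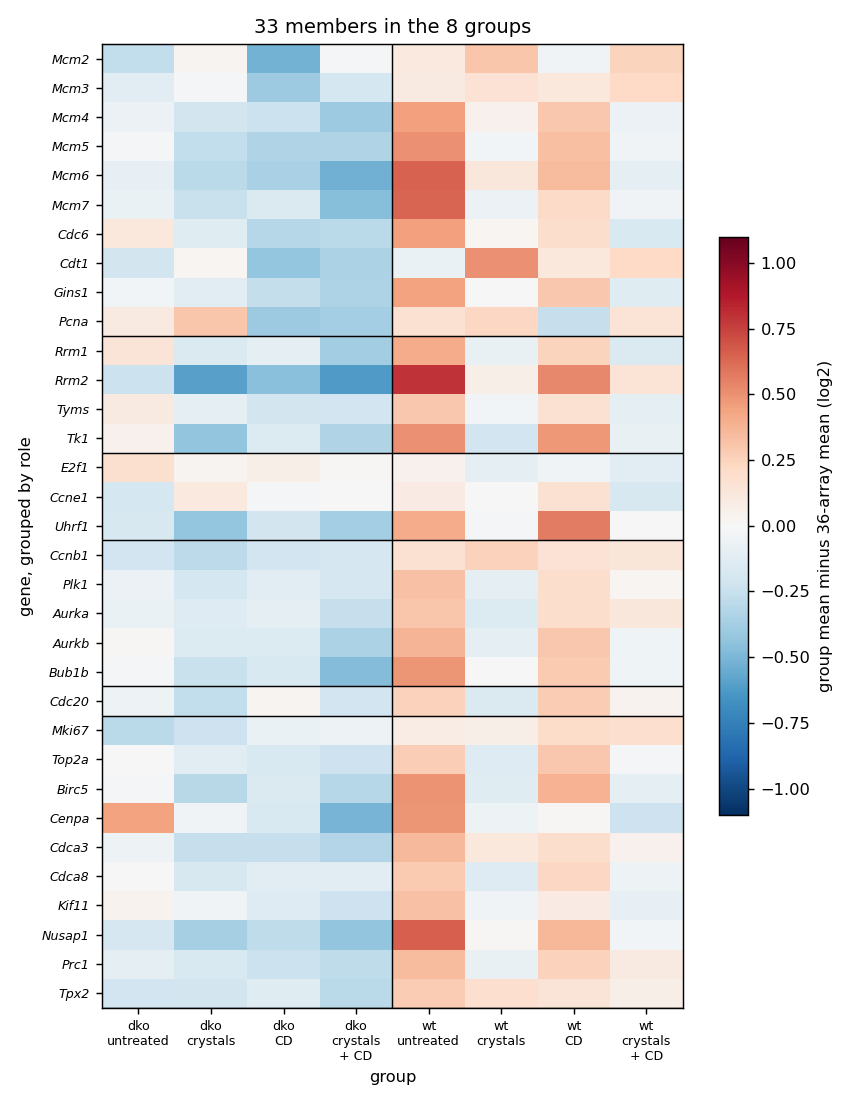
Group mean minus the mean over all 36 arrays (log2, colour) for each measured member, ordered by role, with the 4 dko groups in the columns left of the 4 wt groups. Black lines part the roles (licensing and fork, nucleotide supply, S-phase entry, mitotic cyclins and kinases, APC/C, chromosome and spindle). Untreated wt is the highest of the 8 groups for most genes; for Rrm2 the group mean was 6.77 in untreated dko and 7.81 in untreated wt.

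The third question was what CD did. In unloaded cells 1 of 33 members passed in dko (Cenpa), beside 0.583% of genes called lower, 1.13% called higher and 1.71% in either direction, and none in wt, beside 0.895%, with 1 member at an unadjusted p under 0.05. Cenpa fell by 0.61 ± 0.15 in dko (adjusted p = 0.0299), with levels of 10.86, 10.63, 10.81 and 10.68 with CD against the untreated levels given above, without overlap. In wt the Cenpa change was -0.47 ± 0.14 (adjusted p = 0.11), with levels of 11.05, 11.37, 11.11, 10.52 and 10.60 with CD. On the shared slides both passed, at -0.61 ± 0.09 in dko (adjusted p = 0.00101) and -0.58 ± 0.13 in wt (adjusted p = 0.0344). Without dko number 7, 8 or 9 the call in dko was lost. After Cenpa, the smallest p in dko belonged to Cdc6, at 5.56 ± 0.40 with CD and 5.99 ± 0.36 untreated (SD), and Tyms, at -0.31 (adjusted p = 0.266).

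In crystal-loaded cells no member passed for CD. In dko this stood beside 1.8% of all genes called (1.27% higher), and the members' median change was -0.11. In wt it stood beside 0% of genes called by limma, with 1042 of 14416 genes at an unadjusted p under 0.05, and the median was -0.04, or 0.05 on the slides with wt alone. Cenpa, at 10.35, 10.45, 10.35 and 10.46 in dko arrays with crystals and CD, lay below every dko array with crystals alone, at a change of -0.47 ± 0.15 (adjusted p = 0.121). Leaving out wt number 2 brought 1 member past the threshold in dko. No member differed between genotypes in its CD effect, loaded or unloaded, and no gene of the whole table did (0% called in each).

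Crystals followed by CD were also set against untreated cells. In dko 2 of 33 fell, beside 4.02% of genes called lower, 4.07% called higher and 8.1% in either direction. The dko count thus lay near the share of all genes and is not read as a result about the members. In wt 13 of 33 fell, beside 8.73% of genes called lower, 7.48% called higher and 16.2% in either direction. Whether these effects differed between genotypes was not tested. The median change was -0.27 in dko and -0.39 in wt. In dko Cenpa fell by 0.95 ± 0.15 (adjusted p = 0.000162) and Rrm1, the large subunit of ribonucleotide reductase, by 0.52 ± 0.16 (adjusted p = 0.0405). Bub1b was at 8.18 ± 0.10 after both and 8.63 ± 0.37 in untreated dko cells (SD; adjusted p = 0.0602). Rrm1 was at 8.30, 8.38, 8.32 and 8.42 in dko arrays after both, against 8.84, 8.84, 8.97 and 8.87 untreated, without overlap. Without dko number 6, 7 or 8 there was 1 member called. In these dko cells 2 of 6 granulocyte markers also rose (Lcn2 by 2.05 and Camp by 0.76), beside the 4.07% of genes called higher. What this had to do with the members was not tested.

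In wt cells after crystals and CD, Cenpa fell by 0.71 ± 0.14 (adjusted p = 0.000381), Cdc6 by 0.62 ± 0.15 (adjusted p = 0.0034) and Rrm1 by 0.57 ± 0.15 (adjusted p = 0.00571). Cdc6, which recruits the helicase to origins, was at 5.85, 5.87, 5.49, 5.79 and 5.53 in wt arrays after both, against 6.36, 6.24, 6.51, 6.18 and 6.32 untreated, without overlap. Cenpa was at 10.62, 10.96, 10.82, 10.60 and 10.44 after both, all below the lowest untreated wt array at 11.05. Rrm1 was at 8.63, 8.77, 8.93, 8.27 and 8.29 after both, against 9.25, 9.40, 9.26, 8.94 and 8.90 untreated, with the ranges overlapping. By role, all 4 genes of nucleotide supply fell, beside 8.73% of all genes. With them fell 4 of 10 licensing and fork genes, 4 of 10 chromosome and spindle genes and 1 of 5 mitotic cyclins and kinases. On the shared slides 2 members passed (Rrm1 and Cenpa), beside 4.41% of genes, so that this count lay near the share of all genes. On the slides with wt alone 9 fell and Cdt1 rose, beside 13.8% of genes. Without wt number 1 there were 6 called and without number 3 there were 8, and with median scaling 1 was called. These last counts are given without the share of all genes.

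Other genes of the same processes, also listed with earlier results of these data known, were counted beside the share of all genes. With crystals in wt, 7 of 34 further replication genes (20.6%) fell and none rose, beside 7.11% of all genes called lower, the 4 largest being Timeless (-0.75, a fork protection factor), Lig1 (-0.67, the ligase that joins Okazaki fragments), Mcm10 (-0.65) and Clspn (-0.65). Of 44 further mitotic genes 12 (27.3%) fell, led by Ckap2l (-0.68), the condensin subunits Ncaph (-0.66) and Ncapd2 (-0.62), and the kinesin Kif15 (-0.59). After crystals and CD, 10 replication genes (29.4%) and 13 mitotic genes (29.5%) fell in wt, beside 8.73% of all genes, with Lig1 at -0.91 and the spindle gene Aspm at -0.84. In dko after both, 3 replication genes fell (Lig1 by 0.90, Clspn by 0.73 and Fen1 by 0.40), 8.82% of the list beside 4.02% of all genes, and no mitotic gene was called. Averaged over treatments, 14 of 34 replication genes (41.2%) and 19 of 44 mitotic genes (43.2%) fell in dko relative to wt, beside 9.1% of all genes, among them the replication genes Clspn (-0.68), Pole (-0.47) and Rfc4 (-0.43) and the mitotic genes Cenpf (-0.55), Kif15 (-0.51), Spc25 (-0.48) and Kntc1 (-0.46). Under CD alone Clspn (-0.95), Timeless (-0.78) and Rpa2 (-0.61) fell in dko relative to wt.

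Of 34 genes that govern G1, 5 rose and 6 fell with crystals in wt, beside the 6.89% and 7.11% of all genes given above, and the other 23 did not pass. The largest rises were of Cdkn1c, an inhibitor of cyclin-dependent kinases (2.58 ± 0.44, adjusted p = 8.69e-05), and of the growth arrest and stress genes Gadd45a (2.18 ± 0.29) and Gadd45b (1.64 ± 0.29), and the largest fall was of the cyclin Ccnd3 (-1.09 ± 0.23). The Cdkn1c level was 11.11 to 12.11 in dko arrays with crystals and 8.89 to 11.22 in untreated dko arrays, and 11.51 to 12.23 in wt arrays with crystals and 8.60 to 10.11 in untreated wt arrays. Its dko change of 1.56 ± 0.49 had an adjusted p of 0.195. After crystals and CD, Gadd45b rose by 1.82 in dko and 1.95 in wt, Cdkn1a, the inhibitor p21, rose in dko by 0.85 (adjusted p = 0.0436), and the change of the cyclin gene Ccng2 in wt was -1.31, which passed. E2f2, another E2F factor, fell with CD in dko, with changes of -1.26 ± 0.23 in unloaded and -1.08 ± 0.23 in loaded cells, at 6.51 ± 0.25 with CD and 7.78 ± 0.21 untreated (SD). Its change in unloaded wt cells was -0.61 ± 0.21 (adjusted p = 0.209). Between genotypes, averaged over treatments, 1 of the 34 rose in dko (Cdkn2b, by 0.48) and 3 fell (Ccne2 by 0.62, E2f7 and Lin54), together 11.8% of the list beside 19.2% of all genes, so the list's share was below that of all genes.

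Where a member had further probes, most moved with the chosen one. Birc5, the survivin gene, had further probes at -0.69 and -0.60 for crystals in wt, against -0.63 for the chosen probe, and Bub1b had one at -0.43, against -0.48. The second Cdca8 probe was at -0.08 (adjusted p = 0.882) where the chosen one fell by 0.43, and a dim Cdc20 probe, detected on 22 arrays, was at 0.10 where the chosen one fell by 0.41. Ccne1, cyclin E1, was the only measured member whose chosen probe was not detected on every array. It was detected on 2 of 5 wt arrays after crystals and CD, and its log2 level of 4.81 to 5.17 over group means lay close to background.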

How the data were processed

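Total RNA of 36 samples was labelled with biotin and hybridised to Illumina bead arrays, per the labels' protocols. The authors deposited, for each of 45281 probes and each array, an intensity that, per its values, had been neither normalized between arrays (array medians 83.5 to 128) nor log-transformed, and a detection p-value. The deposited series matrix holds log2 of the same intensity, within 5.57e-05, so its scale and direction are known and it carries no further centring. The submitters' processing notes name Partek, with no role or step.

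Intensities were processed with limma 3.58.1 in R 4.3.3 by neqc: a normexp background correction that infers the negative controls from the detection p-values, an offset of 16, quantile normalization and log2. Probes with a detection p under 0.05 on at least 4 arrays were kept (21126), 1 unnamed line was dropped, and the probe with the highest mean stood for a gene, leaving 14416 genes. An array had 15342 to 17892 detected probes, and the number of arrays limits the precision. Gene names came from the array table and the RefSeq gene table (GRCm38.p6 for promoters). Of the 40 members, 81 probes carried the name and 55 passed; 1 probe that matched only through a synonym, for Tpx2, was detected on 1 array. A mean for each of 8 groups was fitted with lmFit and eBayes (28 residual degrees of freedom), 16 comparisons were made, and p-values were adjusted by Benjamini-Hochberg over all genes within each comparison. All adjusted p-values are limma's, two-sided, with a call at under 0.05; changes are log2 ± SE. Means per replicate number are given for 3 members as a description. The planned exact permutation test was run on them, but its p-values are left out, because these members were chosen for the same difference. The fit was tested on simulated data.

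The members and gene lists were chosen with earlier results of these data known. Every measured member could be named; values are given for the 3 members with the smallest p in each comparison that called a member and for all called where at most 8 were, and the 4 largest called changes are named in the other lists, except 1 gene that is not reported here. Genes outside this rule were added after their values were seen. Alternatives covered background, scaling, probe choice, filters, slide and replicate blocks, subsets of arrays and leaving out each number. Those on Xist were chosen after seeing the data. Replicate numbers were not taken as pairs, since not every same-numbered pair correlated above 0.1. In wt 27 of 30 such pairs did, so the unpaired treatment comparisons in wt leave this shared deviation in the spread between arrays.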

Additional observations from a re-analysis of the deposited data

Results flagged for a closer look

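Of 64 sets of 4 or 5 values checked with Dixon's test, 3 held an array apart from the rest of its group, where chance flags about 1 in 20. The Rrm2 level was 6.86 in the wt array numbered 3 after crystals and CD, against 7.19 to 7.32 in the other 4. The Mcm4 level was 10.19 in the untreated dko array numbered 9, against 10.48 to 10.53 in the others. The mean deviation of the members was -0.40 in the dko array numbered 9 after crystals and CD, against -0.27 to -0.25 in the others.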

How the results depend on the processing

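None of the 15 called results of single members followed here changed sign under the settings run for it. Outside these 15, the averaged genotype differences of Ccnb1 (0.06), Birc5 (0.08) and Rrm1 (0.04) lay above 0 over arrays with low Xist. Of 360 counts of members called 294 stayed within 1.5 times the reported count and 66 moved. The 294 include counts of 0 that stayed 0, in comparisons that called no member. They therefore do not measure how stable the counts above 0 were. The cause of these moves was not tested, except that smaller subsets hold fewer arrays. With median scaling the counts were 0 for crystals in wt, CD in unloaded dko, crystals plus CD in dko, genotype in untreated cells and genotype under CD, and 1 for crystals plus CD in wt; with the deposited matrix all 6 were 0. These scalings moved the median of all genes for the averaged genotype difference by -0.12 and -0.21, and relative to that shift 32 of 33 members were still below it. Fitting only the groups compared gave 0 for genotype in untreated cells and 0 under CD. Without a filter 9 members passed for crystals in wt and 1 for crystals plus CD in dko. With the mean of a gene's probes 1 passed for crystals plus CD in dko and 1 for genotype under crystals plus CD. On the shared slides the counts for crystals were 0 in wt (beside 0.534% of all genes called) and 1 in dko (beside 1.42%). For CD on those slides they were 1 in unloaded wt (beside 1.24%) and 1 in loaded dko (beside 3.23%). For crystals plus CD in wt the count was 2 (beside 4.41%). The genotype counts on those slides were 0 in untreated cells (beside 0.43%), 0 under CD (beside 0.423%) and 3 averaged (beside 3.86%). With slide as a fixed block the counts were 1 for CD in unloaded wt, 1 for CD in loaded dko, 1 for genotype under CD and 4 averaged. With slide as a random block the averaged count was 17, beside 12.2% of all genes. With Xist level as a block 1 passed for CD in unloaded wt (beside 2.23% of all genes) and 1 for CD in loaded dko (beside 4.13%). For genotype with that block 1 passed under crystals (beside 1.37%), 4 under CD (beside 1.23%) and 1 under crystals plus CD (beside 1.26%). Over arrays with low Xist 1 passed for genotype under CD (beside 1.21%) and 2 averaged (beside 5.81%). Over numbers 4 to 9 the differences between means per number were -0.93 for Rrm2, -0.41 for Uhrf1 and -0.23 for Mcm4. Leaving out 1 number at a time gave 3 to 16 for crystals in wt, 6 to 14 for crystals plus CD in wt and 1 to 2 in dko. It gave 0 to 1 for CD in unloaded dko and 0 to 1 in loaded dko. For genotype it gave 0 to 3 in untreated cells, 0 to 4 under CD and 12 to 26 averaged. Counts in this paragraph that stand without a share of all genes are not set against one.

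With the replicate number as a block, 1 member passed for crystals in dko, 1 for CD in unloaded wt, 1 for CD in loaded dko and 13 for the averaged genotype difference. These counts are given without the share of all genes. Deviations of same-numbered arrays correlated at -0.72 to 0.60 in dko (median -0.40, 10 of 24 pairs over 0.1) and at -0.04 to 0.72 in wt (median 0.53, 27 of 30 pairs over 0.1), against medians of 0.34 in dko and -0.23 in wt for differently numbered arrays. Arrays of 1 wt number thus mostly deviated together, and those of 1 dko number did not; of 36 arrays 16 correlated best with their own number. Called in all 22 settings run was the averaged Rrm2 difference, while averaged Uhrf1 was called in 21 and Mcm4 in 19. Cenpa kept its call for crystals in wt in 19 of 23 settings. Other calls were kept less often. Between genotypes, Uhrf1 under CD was kept in 13 of 23 settings, Rrm2 under CD in 14 of 23 and untreated Rrm2 in 17 of 23. In dko, Rrm1 after crystals plus CD was kept in 14 of 22 and Cenpa with CD in unloaded cells in 16 of 22. The remaining followed calls were kept in 18 to 21 settings. The genotype counts within a treatment rest on 4 dko and 5 wt arrays. The only member called up in any setting was Cdt1, in 3 of the 360 counts. Among these were crystals and crystals plus CD in wt, both on the slides with wt alone. Values that passed no test did change sign: the averaged Mki67 difference was 0.19 over arrays with low Xist, against -0.30, and the members' median for CD in loaded wt was 0.05 on the slides with wt alone, against -0.04. The members' median genotype difference of the CD effect in unloaded cells was 0.11 with median scaling and 0.16 with the deposited matrix, against -0.04.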
